A study of Mus musculus with 27 samples.

Results

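The Cyp2 genes encode the cytochrome P450 enzymes of family 2, membrane-bound haem proteins of the endoplasmic reticulum that oxidise drugs, ethanol, steroids and fatty acids. They were taken by symbol: every gene named Cyp2, then a letter from a to u, then a number, with 10 or more read counts in at least 3 of the 27 liver libraries. This gave 36 members out of the 43 Cyp2 genes listed and out of 17655 genes in all. Chromosome 7 held 4 members of subfamily 2a, 3 of 2b and the single members Cyp2e1, Cyp2f2, Cyp2g1, Cyp2r1 and Cyp2s1. Chromosome 19 held 13 members of 2c, chromosome 15 held 7 of 2d, chromosome 4 held 3 of 2j and chromosome 3 held Cyp2u1. The 7 genes left out were Cyp2b23, Cyp2c65, Cyp2c66, Cyp2d11, Cyp2j8, Cyp2j11 and Cyp2j13, none of which had more than 11 counts in any library. Just inside the limit, Cyp2s1 reached 10 counts in 6 libraries and Cyp2g1 in 10 libraries, and just outside it the best of the 7 did so in 1.

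All 27 libraries were bulk liver RNA of mice carrying floxed Kdm5b, a histone demethylase gene, fed a Western diet with alcohol in the water (WDA). There were 9 groups of 3 mice. At the WDA stage, which the labels give as 8 weeks of feeding, the groups were WT females, KO females, HepKO females, WT males and KO males. At the resolution stage (Res), given as 16 weeks of WDA and 4 weeks after it, they were WT females, KO females, WT males and KO males. The methods of the study describe a longer feeding for the WDA model than the labels of the WDA mice give, and this difference could not be settled. WT mice carried the same floxed alleles and received a control AAV. KO mice received AAV8-CMV-Cre, whose promoter is not limited to 1 cell type, and HepKO mice received AAV8-TBG-Cre, whose promoter is directed to hepatocytes. The WDA mice belonged to experiment 11 and the Res mice to experiment 12, and the labels put the vector before the feeding in WDA mice and after it in Res mice. The study describes chow and plain water during resolution, so the diet at collection differed between the stages as well. Stage, diet, length of feeding, experiment and the order of vector and feeding therefore cannot be told apart. The sexes were deposited in separate tables.

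As background, hepatocytes carry most of the P450 of the liver. Many Cyp2 enzymes sit in the hepatocytes around the central vein, where Cyp2e1, the ethanol-oxidising P450, is concentrated. Rodent Cyp2 genes are also known for differing between the sexes under the pattern of growth hormone release from the pituitary, with Cyp2b9, Cyp2b13, Cyp2a4 and Cyp2c40 known as female-biased and Cyp2d9 as male-biased. The nuclear receptors CAR and PXR induce members such as Cyp2b10 in response to foreign compounds.

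The genes stand in clusters of near copies, and 3 pairs of promoters are shown because the members of each pair are close in sequence. Each is the 150 bases before the transcript start that the RefSeq promoter table uses on build GRCm38.p6, written 5′ to 3′ on the gene's strand, with capitals marking bases that differ from the other member of the pair or have no partner there. The RefSeq gene spans of Cyp2b9, Cyp2b13 and Cyp2d10 begin farther upstream than that start, so part of each of these 3 stretches lies within the gene as annotated. Cyp2b9 lies at chr7:26173259-26173408, plus strand, and Cyp2b13 at chr7:26061345-26061494, plus strand. Cyp2a4 lies at chr7:26307042-26307191, plus strand, and Cyp2a5 at chr7:26835189-26835338, plus strand. Cyp2d9 lies at chr15:82452227-82452376, plus strand, and Cyp2d10 at chr15:82407195-82407344, minus strand.
Cyp2b9: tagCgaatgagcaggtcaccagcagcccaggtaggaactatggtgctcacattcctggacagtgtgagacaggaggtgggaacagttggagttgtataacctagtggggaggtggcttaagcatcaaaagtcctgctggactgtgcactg
Cyp2b13: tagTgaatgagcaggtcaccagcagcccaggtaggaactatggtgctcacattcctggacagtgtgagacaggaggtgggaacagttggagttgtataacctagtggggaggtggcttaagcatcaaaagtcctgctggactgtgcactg
Cyp2a4: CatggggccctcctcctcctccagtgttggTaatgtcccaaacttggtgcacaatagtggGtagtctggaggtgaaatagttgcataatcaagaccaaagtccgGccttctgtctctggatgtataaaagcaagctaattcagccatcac
Cyp2a5: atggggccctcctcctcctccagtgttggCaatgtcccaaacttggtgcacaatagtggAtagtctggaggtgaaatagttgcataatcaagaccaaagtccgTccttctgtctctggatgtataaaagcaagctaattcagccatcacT
Cyp2d9: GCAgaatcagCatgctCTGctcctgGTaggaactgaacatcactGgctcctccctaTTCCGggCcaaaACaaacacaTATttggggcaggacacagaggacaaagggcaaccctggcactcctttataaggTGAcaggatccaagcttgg
Cyp2d10: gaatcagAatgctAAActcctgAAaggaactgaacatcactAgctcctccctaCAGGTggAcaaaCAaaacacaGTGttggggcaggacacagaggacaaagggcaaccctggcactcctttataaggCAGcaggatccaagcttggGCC
The promoters of Cyp2b9 and Cyp2b13 were 99.3% identical, those of Cyp2a4 and Cyp2a5 were 96.7% identical and those of Cyp2d9 and Cyp2d10 were 82.4% identical.

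Promoters were found for 29 of the 36 members and searched over 250 bases on both strands for 3 short motifs. TTCNNNGAA, the letters of a STAT5 site, were in 0 of 29 members and in 7.18% of 27025 promoters. ATTGAT, the core of an HNF6 site, was in 5 members (17.2%; 6.97% of all promoters), namely Cyp2c37, Cyp2c50, Cyp2c67, Cyp2c68 and Cyp2c69. CAAAGTCCA, a form of the HNF4A site, was in Cyp2c40, Cyp2c67, Cyp2c68, Cyp2c69 and Cyp2c70, again 5 members (17.2%), and in 0.381% of all promoters. Near copies are counted singly here, so their matches are not independent. Over 150 bases the promoters of Cyp2c68 and Cyp2c69 were 88.2% identical and those of Cyp2c37 and Cyp2c50 84.5%. Those of Cyp2c40 and Cyp2c69 were 65.6% identical, with 118 identical bases of 120 aligned and 60 gap bases, and those of Cyp2c67 and Cyp2c70 were 47.8% identical. Gap bases count against identity in these percentages. These are matches of letters, and no binding was measured.

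The clusters also limit the counts. Windows of 50 bases were compared between the longest protein-coding transcripts of the Cyp2 genes, and not with genes outside Cyp2. Of its windows, Cyp2c40 shared 72.1% (42.1% with Cyp2c69), Cyp2c69 shared 54.8%, Cyp2c67 shared 52.8% and Cyp2c68 shared 43.3%. For Cyp2a4 the share was 36.1%, all of it with Cyp2a5, and for Cyp2d9 it was 27.8%, while Cyp2b9 shared 10.8% and Cyp2b13 shared 20% of windows. Levels of these genes are therefore uncertain where counting could split reads between copies. Cyp2e1, Cyp2f2, Cyp2u1, Cyp2c23, Cyp2c70 and Cyp2j9 shared 0% of windows with other Cyp2 genes.

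Libraries held 14634602 to 19388251 counts (median 17944536). The targeted gene, Kdm5b, had 16.6 to 31.2 CPM (counts relative to the library total, scaled by TMM over all 27 libraries) in the 12 WT mice, 7.93 to 24.1 in the 12 KO mice and 8.30 to 17.4 in the 3 HepKO mice, so the ranges overlapped. Within a stage and sex, KO mice lay below WT mice in WDA males (20.6 to 22.02 against 23.5 to 24.9), Res females (10.7 to 13.2 against 16.6 to 17.4) and Res males (7.93 to 17.1 against 18.8 to 19.6), and overlapped with them in WDA females (14.5 to 24.1 against 21.4 to 31.2). HepKO females (8.30 to 17.4) lay below the WDA WT females. In 5 libraries the summed level of 8 cholangiocyte markers was 169.5 to 575.3 CPM, against 18.5 to 116 in the other 22. All 8 markers had the higher median in the 5, Krt19 at 2.75 to 7.07 CPM against 0 to 1.64 and Epcam at 7.78 to 21.1 against 0.415 to 4.68. They were WDA WT female 7, WDA KO male 17, Res WT female 13, Res WT male 9 and Res KO male 5. In these 5, scar markers summed to 361.8 to 754.5 CPM (175.9 to 380.8 in the 22) and pericentral hepatocyte genes to 500.3 to 2884 (3409 to 5780). Hepatocyte markers summed to 89160 to 115700 CPM in the 5 and 92900 to 193200 in the 22. Macrophage markers summed to 356.3 to 1140 and 285.2 to 795.3, endothelial markers to 169.2 to 196.7 and 177.8 to 318.6, and lymphocyte and neutrophil markers to 8.47 to 15.8 and 3.07 to 29.0. These livers are spread over 5 groups and enter most comparisons. Some of the results that rest on them are given with and without them, and others only with them. In bulk liver fewer cells of a type and less RNA per cell cannot be told apart.

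Cyp2 members together took 1.65% to 2.08% of all counts in the 22 libraries and 0.81% to 1.68% in the 5. On the deposited FPKM scale, which divides by gene length, Cyp2e1 stood highest with a mean of 5066 over the 27 mice. Cyp2d26 came next at 738.9, followed by Cyp2d9 (630.4), Cyp2f2 (591.7), Cyp2d10 (574.3) and Cyp2a12 (495.5). Cyp2c29, at 470.1 FPKM, led subfamily 2c, Cyp2b9 at 218.0 led 2b, and Cyp2j5, an enzyme of arachidonic acid epoxidation, led 2j at 183.5. At the low end were Cyp2c55, Cyp2d34, Cyp2g1 and Cyp2s1, with mean FPKM of 0.906, 0.725, 0.315 and 0.177. The order of neighbours was not firm, since Cyp2d26, Cyp2d9, Cyp2f2, Cyp2d10 and Cyp2a12 overlapped in their ranges over mice. Cyp2e1 stood above each of them within every liver, and its lowest level was 673.98 FPKM in WDA WT female 7, where Cyp2a4 stood higher at 1144.68.

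The highest CPM exceeded the lowest by 2460-fold for Cyp2b13, 1971-fold for Cyp2a4, 554.4-fold for Cyp2b9, 380.4-fold for Cyp2c69, 127.3-fold for Cyp2c40 and 88.3-fold for Cyp2d9. The same ratio was 15.1 for Cyp2e1 and 1.97 for Cyp2a12. The heatmap of all members by mouse shows the widest of these ranges between females and males.

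**Figure D1:**
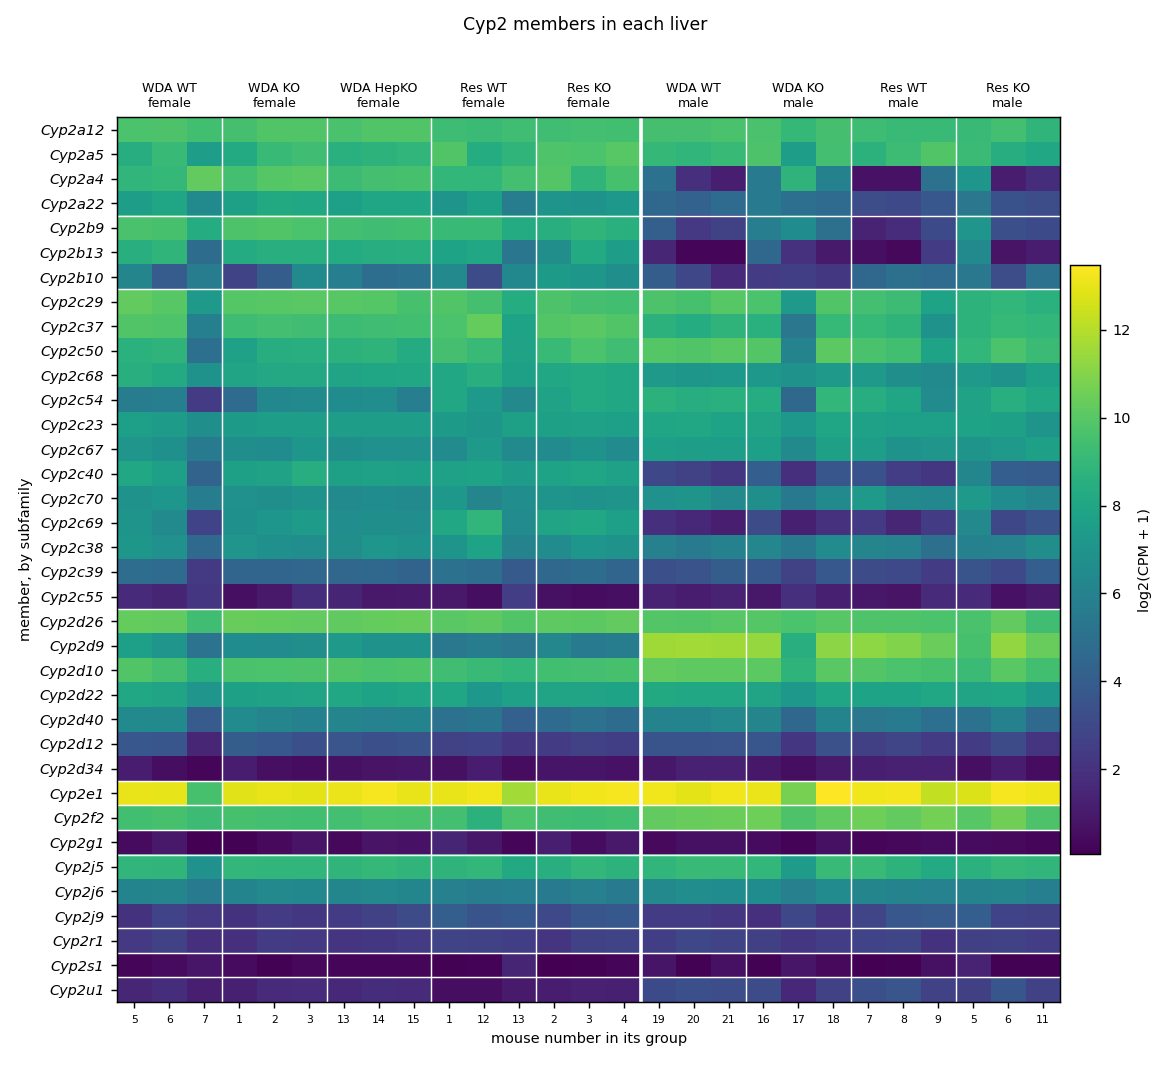
Level of each of the 36 Cyp2 members (rows, grouped by subfamily) in each of the 27 mice (columns, by group, numbered by mouse), with colour for log2(CPM + 1). CPM is not divided by gene length, so colours compare mice within a row. Females are high and males low for Cyp2b9, Cyp2b13, Cyp2a4, Cyp2a22, Cyp2c40 and Cyp2c69, and the reverse holds for Cyp2d9.

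The first question was whether the family differed between males and females within each stage and vector, in 4 comparisons that share no mouse. Members that passed the test were Cyp2a22, Cyp2b9, Cyp2c40 and Cyp2c69 among those lower in males and Cyp2d9 and Cyp2u1 among those higher, each in 2 to 4 of the comparisons. In 8 of the 34 members tested in all 4 comparisons (23.5%), males and females did not overlap in any of them, in the same direction throughout. Over all 12134 such genes this held for 111 (0.915%). Cyp2b13, Cyp2b9, Cyp2c69, Cyp2a4, Cyp2c40 and Cyp2a22 lay lower in males by this measure, 6 members (0.412% of all genes), and Cyp2f2 and Cyp2d9 lay higher, 2 members (0.503%).

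A member passed where edgeR's quasi-likelihood p, adjusted by Benjamini-Hochberg over all genes tested, was under 0.05. Between WDA WT males and females 4 of 34 members passed, 2 higher and 2 lower in males, where 0.851% of all genes passed (0.535% higher, 0.316% lower). Between Res WT males and females 6 passed, 2 higher and 4 lower, beside 0.545% of all genes (0.348% and 0.197%). In WDA KO mice 4 passed, all lower in males, beside 0.296% of all genes (0.120% and 0.176%). In Res KO mice 10 passed, 2 higher and 8 lower, beside 6.34% (3.40% and 2.94%). DESeq2 called 11, 13, 8 and 12 members in the same order, beside 4.45%, 2.13%, 2.49% and 9.79% of all genes, and the fit of all 27 libraries called 10 in WDA WT (2.58%), 10 in Res WT (1.30%), 5 in WDA KO (1.38%) and 7 in Res KO mice (8.02%). With library totals the 10 calls of Res KO mice became 5. The median log2 fold change over the members tested was 0.16, -0.07, -0.27 and -0.13 in these comparisons, against -0.03, -0.02, 0.01 and 0.01 over all genes. Differences between the 4 counts were not tested. Without the 5 libraries with high cholangiocyte markers, the counts were 20 (9 higher, 11 lower), 9 (2 and 7), 14 (6 and 8) and 14 (3 and 11), beside 8.35%, 1.45%, 2.80% and 8.84% of all genes.

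Cyp2b9 is a female-biased P450 of subfamily 2b. In WDA females it stood at 787, 760.0 and 332 CPM in WT, 839.9, 908 and 804 in KO and 714, 667 and 680.4 in HepKO mice. In Res females it stood at 542, 565 and 321 in WT and 369.6, 449 and 376 in KO mice. Every female was above every male. WDA WT males had 16.7, 3.93 and 5.26 CPM and WDA KO males 54.1, 94.4 and 31.1. Res WT males had 1.64, 2.37 and 7.36 CPM and Res KO males 131, 9.20 and 7.58, where mouse 5 stood apart from the other two. Cyp2b9 fell in males against females in WDA WT (log2 fold change -6.18 ± 0.72, adjusted p = 0.0243), Res WT (log2 fold change -6.96 ± 0.62, adjusted p = 0.00374) and WDA KO mice (log2 fold change -3.81 ± 0.42, adjusted p = 0.0183). In Res KO mice the value was -2.98 ± 0.94 and did not pass (adjusted p = 0.0947), and without male 5 it was -5.55 ± 0.22 and passed (adjusted p = 1.01e-05, edgeR). Errors are standard errors, taken as the size of the log2 fold change over the square root of the F statistic of the edgeR test. Each group held 3 mice when all were used. Fits that left out livers had fewer mice in the groups those livers came from. For Res WT mice the 5 libraries with high cholangiocyte markers include a male and a female, so both groups were then smaller.

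The plot of sex-differing members by mouse shows this split, and that of its neighbours. Cyp2b13, which lies near Cyp2b9 with a promoter that differs by 1 base of those printed, had 352, 462 and 26.8 CPM in WDA WT females and 1.89, 0.242 and 0.188 in WDA WT males, where it rests on few counts. Its log2 fold changes were -8.49 ± 1.41, -6.69 ± 1.08, -5.33 ± 1.0 and -2.73 ± 1.32 in WDA WT, Res WT, WDA KO and Res KO mice, none of which passed (adjusted p of 0.0587, 0.0524, 0.107 and 0.25). Without the 5 libraries all 4 passed, with adjusted p of 5.21e-06, 4.68e-05, 0.0232 and 0.000225. Cyp2b10, the CAR-inducible member, was lower in Res KO males than in Res KO females (log2 fold change -2.29 ± 0.47, adjusted p = 0.025). The summed level of the 2b members was 952.5 ± 469.5 CPM (SD, n = 3) in WDA WT females and 17.4 ± 14.3 in WDA WT males.

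**Figure D2:**
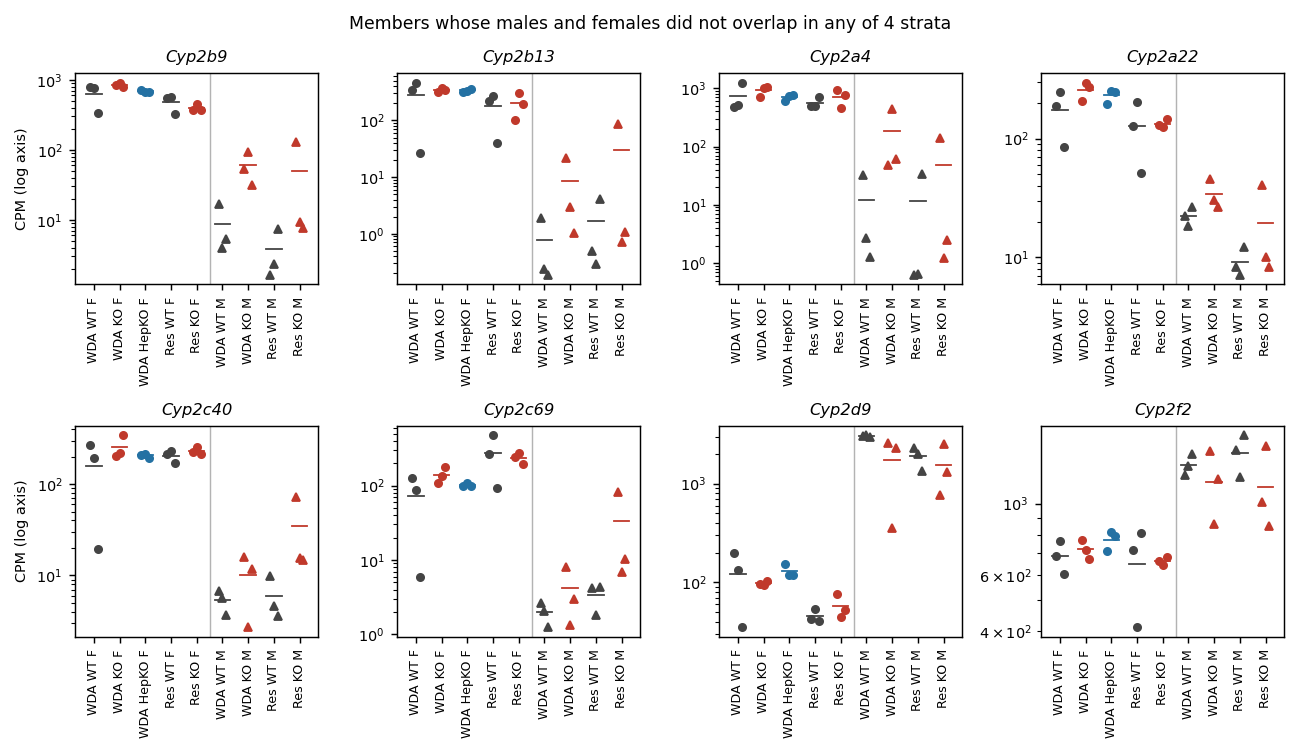
CPM (log axis), by group, of the members whose males and females did not overlap in any of the sex comparisons. There is a point for each mouse (circles for females, triangles for males, black for WT, red for KO, blue for HepKO) and a line at the mean of 3. Within each stage and vector males lie below females for the female-biased members, while across groups Res KO male 5 lies above WDA WT female 7 for Cyp2c40, Cyp2b13 and Cyp2c69. WDA KO male 17, at 442.9 CPM, is the highest male for Cyp2a4.

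In subfamily 2a, Cyp2a4, a testosterone 15α-hydroxylase, stood at 472, 511 and 1241 CPM in WT, 711, 999 and 1046 in KO and 614, 742 and 769 in HepKO females of the WDA stage. Res WT females had 492, 500.5 and 713 CPM and Res KO females 940.0, 452 and 754. WDA WT males had 32.1, 2.72 and 1.25 CPM and WDA KO males 49.1, 443 and 60.0. The single high KO male was mouse 17. Res WT males had 0.629, 0.652 and 34.1 CPM, with mouse 9 apart, and Res KO males had 139, 1.21 and 2.51, with mouse 5 apart. All 3 of these males are among the 5 libraries with high cholangiocyte markers. Over all mice the log2 fold changes were -5.96 ± 1.33 in WDA WT, -5.58 ± 1.42 in Res WT, -2.29 ± 0.82 in WDA KO and -3.88 ± 1.39 in Res KO mice, and none passed (adjusted p of 0.122, 0.235, 0.383 and 0.131). Without the 5 libraries they were -5.34 ± 0.91, -9.60 ± 0.24, -4.08 ± 0.22 and -8.55 ± 0.50, and all 4 passed (adjusted p of 0.00886, 3.24e-05, 2.37e-05 and 4.36e-05, edgeR).

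Cyp2a5, the coumarin 7-hydroxylase whose promoter is printed beside that of Cyp2a4, had log2 fold changes of 0.53 ± 0.36, 0.19 ± 0.42 and 0.16 ± 0.52 in the first 3 comparisons, none of which passed. It was lower in Res KO males than in Res KO females (log2 fold change -1.16 ± 0.28, adjusted p = 0.0405). Cyp2a22 fell in males in all 4 comparisons, with log2 fold changes of -2.96 ± 0.40 (adjusted p = 0.0342), -3.80 ± 0.51 (adjusted p = 0.0262), -2.93 ± 0.25 (adjusted p = 0.0055) and -2.74 ± 0.52 (adjusted p = 0.0207). In WDA WT mice it had 189.5, 246 and 84.4 CPM in females and 22.1, 18.3 and 26.4 in males. Cyp2a12, its closest copy and the member with the lowest ratio of highest to lowest CPM, had log2 fold changes between -0.33 and -0.05 and none passed.

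Cyp2c40, an arachidonic acid hydroxylase, had 266, 195 and 19.2 CPM in WT, 204, 219 and 345 in KO and 207, 216 and 196 in HepKO females of the WDA stage, with WT female 7 far below the others. Res WT females had 215, 229.5 and 171 CPM and Res KO females 225, 256 and 216. In males it stood at 6.75, 5.63 and 3.70 in WDA WT, 15.8, 2.71 and 11.6 in WDA KO, 9.82, 4.57 and 3.55 in Res WT and 72.7, 15.6 and 14.9 in Res KO mice. The lowest female and the highest male of different groups thus overlapped, through WT female 7 and Res KO male 5, while sexes within a group did not. Cyp2c40 fell in males in Res WT (log2 fold change -5.13 ± 0.39, adjusted p = 0.00189), WDA KO (log2 fold change -4.68 ± 0.60, adjusted p = 0.0346) and Res KO mice (log2 fold change -2.73 ± 0.56, adjusted p = 0.0255). In WDA WT mice its log2 fold change was -4.90 ± 0.95 (adjusted p = 0.0889), and without female 7 it was -5.42 ± 0.22 (adjusted p = 2.08e-06).

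Cyp2c69, with which Cyp2c40 shares most windows, was lower in males than in females in Res WT (log2 fold change -6.35 ± 0.70, adjusted p = 0.0122) and WDA KO mice (log2 fold change -5.10 ± 0.60, adjusted p = 0.0256). Its values of -5.17 ± 1.10 in WDA WT and -2.82 ± 0.79 in Res KO mice did not pass (adjusted p of 0.114 and 0.0679). Lower in Res KO males than in Res KO females were also Cyp2c39 (log2 fold change -1.05 ± 0.26, adjusted p = 0.046), Cyp2c37 (log2 fold change -0.98 ± 0.16, adjusted p = 0.0125), Cyp2c68 (log2 fold change -0.82 ± 0.20, adjusted p = 0.0414) and Cyp2c29 (log2 fold change -0.77 ± 0.17, adjusted p = 0.0296). With all mice Cyp2c54 was higher in males in all 4 comparisons (log2 fold change 0.082 to 3.38) and Cyp2c50 in 3 (-0.074 to 1.77). In WDA mice both passed once the livers with high cholangiocyte markers were left out. Cyp2c54 was then higher in WT males (log2 fold change 2.85 ± 0.12, adjusted p = 2.86e-06) and in KO males (log2 fold change 2.71 ± 0.42, adjusted p = 0.0118), and Cyp2c50 in WT males (log2 fold change 1.24 ± 0.10, adjusted p = 0.000187) and KO males (log2 fold change 1.72 ± 0.22, adjusted p = 0.00414). With all mice none of these 4 values passed.

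In subfamily 2d, Cyp2d9, a testosterone 16α-hydroxylase, stood at 196, 133 and 35.2 CPM in WT, 96.4, 93.1 and 104 in KO and 155, 119 and 119 in HepKO females of the WDA stage. Res WT females had 42.2, 53.2 and 40.4 CPM and Res KO females 76.3, 44.8 and 52.8. In males it had 3072, 3107 and 2973 CPM in WDA WT and 2597, 352 and 2278 in WDA KO mice, with mouse 17 low. Res WT males had 2324, 1993 and 1355 CPM and Res KO males 765, 2553 and 1327. Every male was above every female. Cyp2d9 rose in males in WDA WT (log2 fold change 4.65 ± 0.64, adjusted p = 0.0359), Res WT (log2 fold change 5.37 ± 0.28, adjusted p = 0.000409) and Res KO mice (log2 fold change 4.76 ± 0.45, adjusted p = 0.00128). In WDA KO mice the log2 fold change was 4.15 ± 0.68 (adjusted p = 0.079), and 4.63 ± 0.14 without male 17 (adjusted p = 5.08e-07). Cyp2d10, whose printed promoter is 82.4% identical to that of Cyp2d9, had log2 fold changes of 0.77 ± 0.33 in WDA WT and 0.55 ± 0.17 in Res WT mice that did not pass (adjusted p of 0.355 and 0.361). The 2d members summed to 5527 ± 69.6 CPM in WDA WT males and 2126 ± 820.6 in WDA WT females (SD, n = 3).

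Cyp2u1, a fatty acid hydroxylase at low level, had 1.84, 2.51 and 1.24 CPM in WDA WT females and 7.36, 9.01 and 8.27 in WDA WT males. It rose in males in WDA WT (log2 fold change 2.14 ± 0.28, adjusted p = 0.0308), Res WT (log2 fold change 3.65 ± 0.42, adjusted p = 0.0128) and Res KO mice (log2 fold change 2.46 ± 0.35, adjusted p = 0.00662), and its value in WDA KO mice was 1.31 ± 0.49 (adjusted p = 0.402). Cyp2f2, a naphthalene-activating P450, had 684, 763 and 604 CPM in WDA WT females and 1225, 1306 and 1433 in WDA WT males. Males were above females without overlap in each comparison, with log2 fold changes from 0.70 to 1.14, and none passed (adjusted p from 0.0639 to 0.347). Members of 2j had no call between the sexes.

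Cyp2e1 had no call between the sexes and varied between livers. WDA females had 8406, 8074 and 754 CPM in WT, 7394, 8232 and 7687 in KO and 8711, 10070 and 8261 in HepKO mice. WDA males had 9407, 7898 and 9279 in WT and 8645, 1679 and 11400 in KO mice. In 2 livers, WT female 7 and KO male 17, it was several-fold below all others of the stage. Res females had 8347, 9332 and 3102 in WT and 8523, 9362 and 10170 in KO mice, and Res males had 9454, 9579 and 4835 in WT and 6942, 10130 and 9057 in KO mice. Between the sexes its log2 fold changes were 0.62 ± 0.77 in WDA WT, 0.18 ± 0.44 in Res WT, -0.11 ± 0.59 in WDA KO and -0.08 ± 0.20 in Res KO mice, and none passed (adjusted p of 0.714, 0.944, 0.966 and 0.855). The standard error in WDA WT mice was larger than the value.

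**Figure D3:**
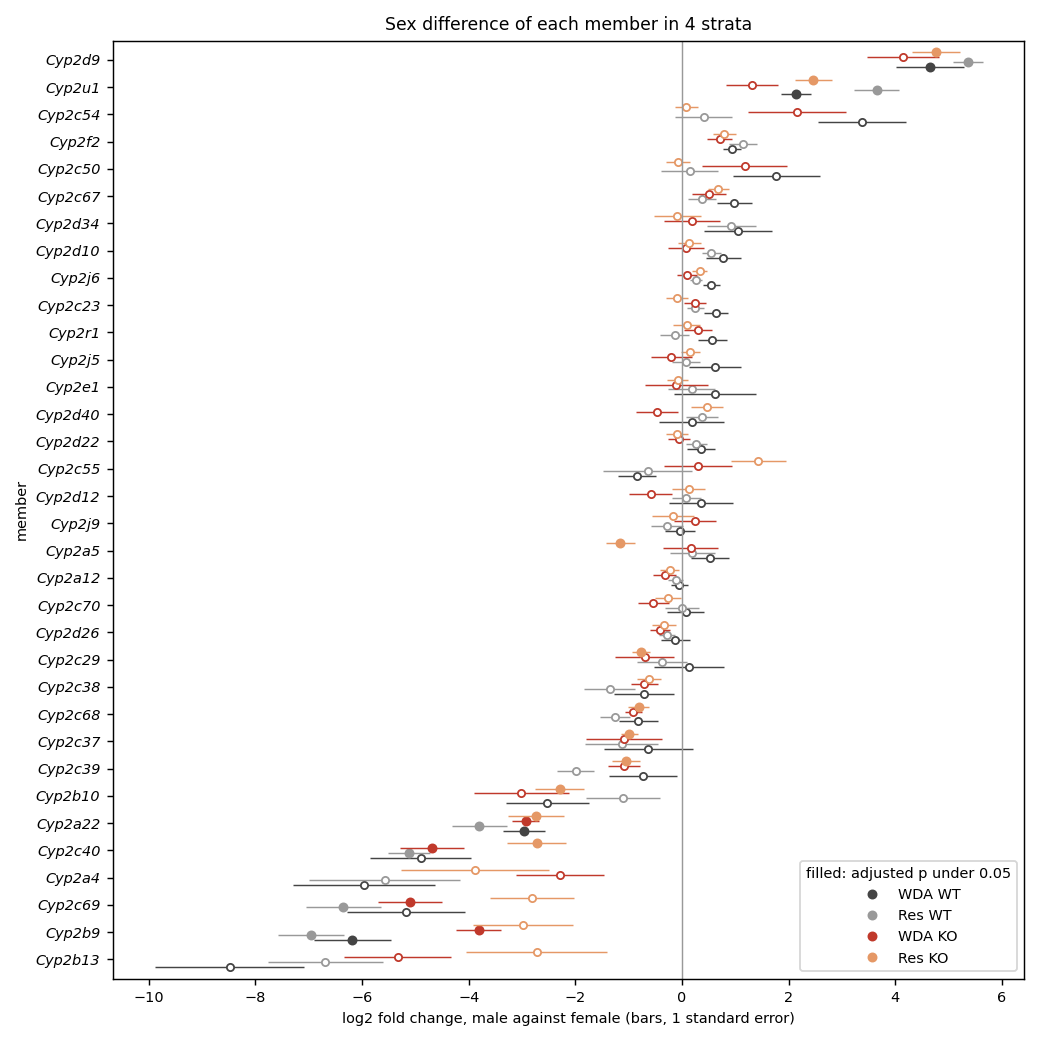
Log2 fold change of each member, male against female, in the 4 comparisons, with bars of 1 standard error and filled points where the adjusted p was under 0.05. Members of 2b, Cyp2a4, Cyp2a22, Cyp2c40 and Cyp2c69 lie below 0 in all 4 and Cyp2d9 lies above 0 in all 4.

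Single libraries moved these counts. Between WDA WT males and females the 4 calls became 20 without female 7, 2 without male 19 and 0 without female 5, female 6, male 20 or male 21. Between Res WT mice the 6 calls became 3 without female 1, male 7 or male 8. In WDA KO mice the 4 calls became 14 without male 17, 2 without male 18, 1 without female 1 or female 2 and 0 without female 3. In Res KO mice the 10 calls became 2 without female 2 or female 4, 3 without female 3, and 6 without male 6 or male 11. No called member turned its direction in any setting tried. Without female 7, 8.35% of all genes passed in WDA WT mice, and without male 17, 2.80% passed in WDA KO mice. For most fits without 1 mouse the share of all genes is not given. Whether such shifts are particular to the family was not tested.

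Outside the family, 8 male-biased liver genes were all tested, and 7, 5, 3 and 8 of them were higher in males in WDA WT, Res WT, WDA KO and Res KO mice. Of the female-biased genes outside Cyp2, 1 of 7, 3 of 8, 1 of 8 and 3 of 8 were lower. Their median log2 fold changes were -4.40, -6.70, -3.38 and -2.48, and those of the male-biased genes 5.90, 5.59, 4.71 and 4.48. Of 13 genes of growth hormone and sex steroid signalling, which include receptors and STAT5, 1 was lower in WDA WT males, and 1 was higher and 2 were lower in Res KO males. Of 18 nuclear receptors and liver transcription factors 2 were higher and 2 lower in Res KO males. Of 14 electron donors and haem synthesis genes, which supply P450 enzymes with electrons and haem, 2 were lower there. These 3 lists had no other call between the sexes. Of 14 other CAR and PXR targets 1 was lower in each of the first 3 comparisons, and in Res KO males 1 was higher and 3 were lower. Among cell markers in Res KO males, 1 of 8 hepatocyte and 1 of 10 pericentral genes were lower, and 1 of 10 periportal, 1 of 7 stellate and scar and 1 of 8 macrophage genes were higher. Their part in the Cyp2 differences was not tested.

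The livers with high cholangiocyte markers were not low for every member. Cyp2e1 had 753.9, 1679, 3102, 4835 and 6942 CPM in them and 7394 to 11400 in the other 22, so the ranges did not overlap. In the 5 groups that hold such a liver, Cyp2e1, Cyp2c37, Cyp2c38, Cyp2c50, Cyp2c54, Cyp2d9, Cyp2d10 and Cyp2j5 were lowest of the 3 mice in it each time, 8 of 36 members, where 9.48% of 13559 genes were. Cyp2a4, Cyp2c55 and Cyp2s1 were highest in it each time, 3 of 36 members, where 12.6% of genes were. Cyp2a4 stood at 1241, 442.9, 712.8, 34.1 and 139.2 CPM in them. The plot against cholangiocyte markers shows both courses. The part of these cells and of depth in the Cyp2 levels was not tested.

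**Figure D4:**
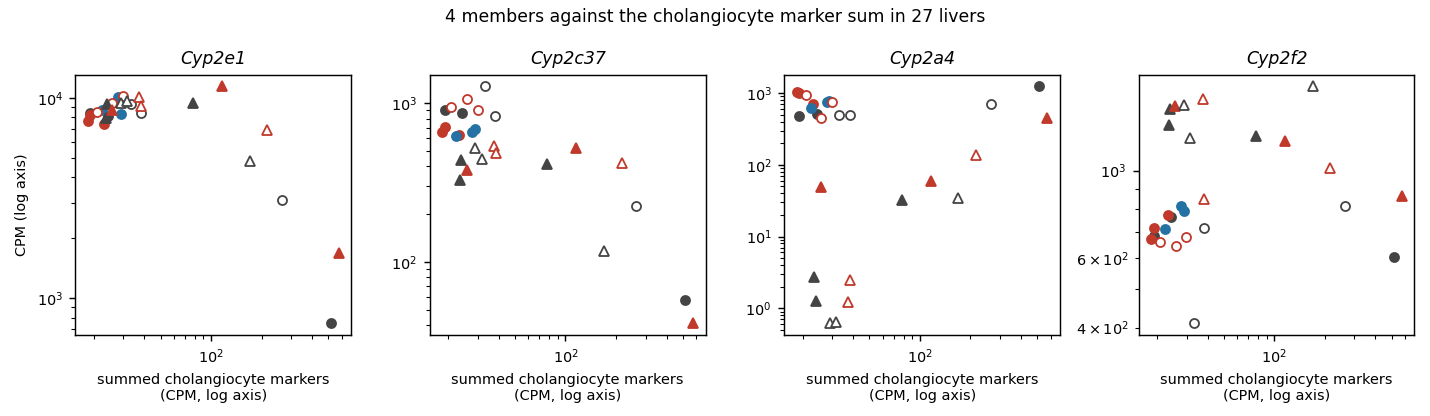
CPM of Cyp2e1, Cyp2c37, Cyp2a4 and Cyp2f2 against the summed CPM of 8 cholangiocyte markers in the 27 mice, both on log axes, with circles for females and triangles for males, filled at WDA and open at Res, and black for WT, red for KO and blue for HepKO. Cyp2e1 is lower in each of the 5 libraries above 150 CPM of markers than in all other mice.

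The second question was whether the family differed between Res and WDA livers of the same sex and vector. In WT females 0 of 34 members passed by edgeR, where 0% of all genes did, and 4 had an unadjusted p under 0.05 (13.6% of all genes). DESeq2 called 1 (3.07%), Cyp2j9 of subfamily 2j, and the fit of all 27 libraries also called 1 (6.21%). Without WDA WT female 7 edgeR called 1. In WT males 1 of 33 members was higher and 5 were lower in Res livers, beside 11.0% of all genes (4.99% higher, 5.98% lower). In KO females 6 of 34 were higher and 7 lower, beside 20.4% of all genes (10.2% in each direction). In KO males 0 passed (0% of all genes), 2 had an unadjusted p under 0.05 (6.43%), and DESeq2 called 1 (0.620%), Cyp2b10.

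Cyp2j9 had 4.44, 4.42 and 3.57 CPM in WDA WT males and 6.42, 12.2 and 14.2 in Res WT males, where it rose (log2 fold change 1.42 ± 0.29, adjusted p = 0.0237). In KO females it went from 3.01, 4.22 and 3.73 to 7.27, 11.5 and 12.5 CPM and rose as well (log2 fold change 1.51 ± 0.23, adjusted p = 0.00365). In WT females it had 3.03, 5.79 and 3.82 CPM at WDA and 16.7, 10.8 and 12.3 at Res (log2 fold change 1.66 ± 0.29, adjusted p = 0.189 by edgeR, and an adjusted p of 0.000258 by DESeq2). In all 3 of these sets no Res liver overlapped with a WDA liver, which held for 36.0% of all genes in WT males, 40.4% in KO females and 20.4% in WT females. Cyp2j6, of the same subfamily, fell in WT males (log2 fold change -0.47 ± 0.10, adjusted p = 0.024) and KO females (log2 fold change -0.57 ± 0.12, adjusted p = 0.0126).

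Members of subfamily 2d also fell in these sets. Cyp2d12 had 10.5, 10.7 and 11.1 CPM in WDA WT males and 4.97, 6.40 and 4.39 in Res WT males (log2 fold change -1.02 ± 0.16, adjusted p = 0.0111), and 15.2, 12.7 and 9.21 in WDA and 4.17, 5.22 and 4.83 in Res KO females (log2 fold change -1.39 ± 0.21, adjusted p = 0.00328). Cyp2d40 fell in WT males (log2 fold change -0.87 ± 0.16, adjusted p = 0.0163) and KO females (log2 fold change -1.35 ± 0.17, adjusted p = 0.00175). Cyp2d10 fell in WT males (log2 fold change -0.45 ± 0.11, adjusted p = 0.0414), and Cyp2d9 fell in KO females (log2 fold change -0.76 ± 0.17, adjusted p = 0.0171). Cyp2a22 fell in WT males (log2 fold change -1.25 ± 0.22, adjusted p = 0.0158) and KO females (log2 fold change -0.96 ± 0.14, adjusted p = 0.00321).

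In KO females, whose 6 livers include none of the 5 with high cholangiocyte markers, members of 2c rose. Cyp2c54 had 25.5, 78.7 and 84.0 CPM at WDA and 224, 310.3 and 272 at Res (log2 fold change 2.10 ± 0.36, adjusted p = 0.00502). Cyp2c50 went from 214, 346 and 370.1 to 578, 806 and 654 CPM (log2 fold change 1.13 ± 0.20, adjusted p = 0.00635). Cyp2c69 (log2 fold change 0.76 ± 0.19, adjusted p = 0.0211), Cyp2c37 (log2 fold change 0.54 ± 0.12, adjusted p = 0.013) and Cyp2a5 (log2 fold change 0.83 ± 0.24, adjusted p = 0.0382) rose too. Cyp2b9 fell (log2 fold change -1.09 ± 0.12, adjusted p = 0.00105), as did Cyp2c29 (log2 fold change -0.41 ± 0.12, adjusted p = 0.0391). The fit of all 27 libraries called 2 members (11.5% of all genes), and leaving out 1 mouse gave 9 to 15 calls. The plot of stage-differing members shows the single mice.

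**Figure D5:**
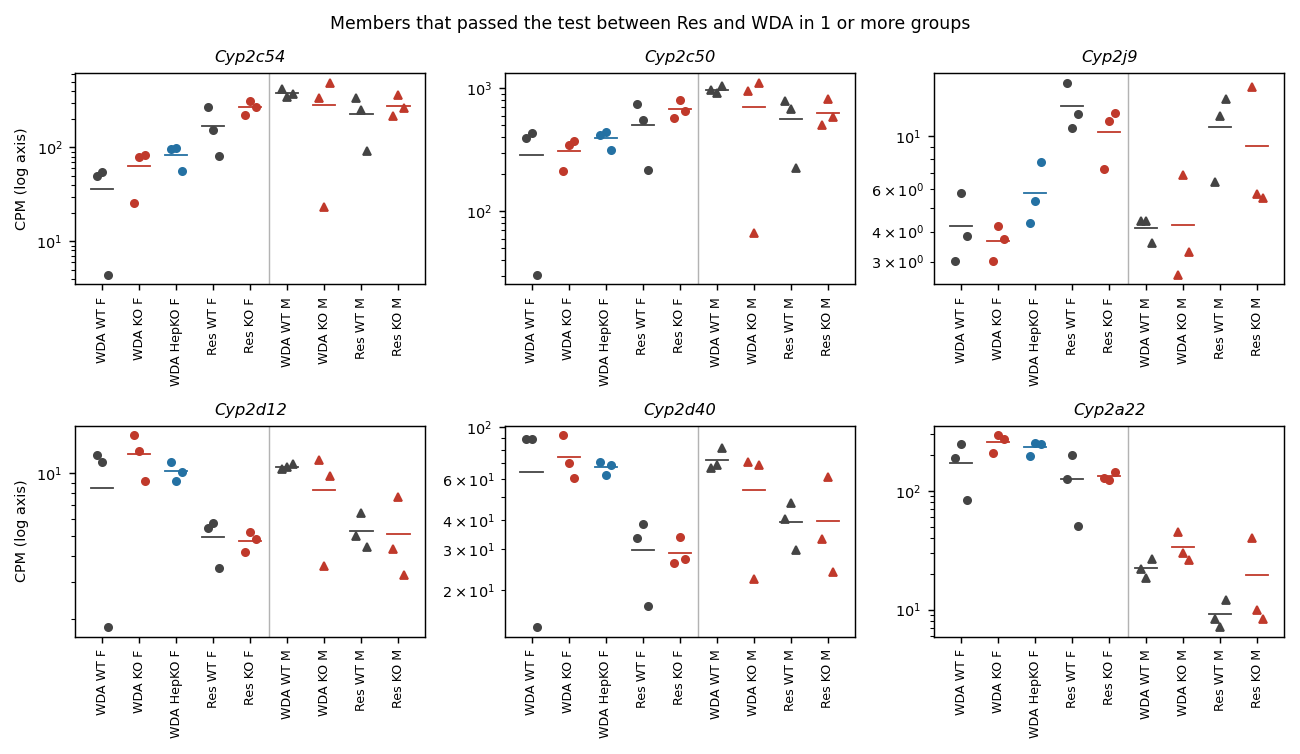
CPM (log axis) in each mouse, by group, of 6 members that passed between Res and WDA in 1 or more groups, with circles for females, triangles for males and a line at the mean of 3 mice. Cyp2j9 is higher and Cyp2d12 and Cyp2d40 are lower at Res in WT males and KO females.

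In WT males the 6 calls became 8 without Res WT male 9 (2 higher, 6 lower, beside 13.5% of all genes), 3 without Res WT male 8, 1 without WDA WT male 20 and 0 without WDA WT male 21. The fit of all 27 libraries gave 0 (2.28% of all genes). In KO males, leaving out WDA male 17 and Res male 5 left 1 call (0.0399% of all genes), Cyp2a4, which was lower at Res (log2 fold change -4.86 ± 0.33, adjusted p = 0.0105), and leaving out Res male 6 alone also gave 1 call. Cyp2b10 in KO males had 4.40, 4.83 and 3.77 CPM at WDA and 41.5, 8.48 and 33.2 at Res (log2 fold change 2.69 ± 0.53, adjusted p = 0.406 by edgeR, and an adjusted p of 5.17e-05 by DESeq2). Cyp2e1 had no call in any stage comparison.

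Among related genes in WT males, 4 of 14 electron donors and haem synthesis genes were lower at Res, 1 of 18 nuclear receptors and liver transcription factors was lower, and 3 of 13 genes of growth hormone and sex steroid signalling were higher and 1 lower. In KO females the counts were 1 higher and 2 lower, 4 lower, and 5 higher and 1 lower. Of 10 pericentral hepatocyte genes 2 were lower in WT males, and 3 were higher and 1 lower in KO females, and of 10 periportal genes 1 and 3 were higher. Of lymphocyte and neutrophil markers 5 of 7 were higher in WT males and 2 of 5 in KO females, and of 8 macrophage markers 1 and 3 were higher. Of 4 cholangiocyte and 6 endothelial markers 1 each was higher in WT males, and of 8 hepatocyte markers 3 were higher in KO females. Of the female-biased genes outside Cyp2, 1 of 3 was higher in WT males and 3 of 8 in KO females, and of the male-biased genes 2 of 8 were lower in WT males and 1 of 7 was higher in KO females. Of 14 other CAR and PXR targets 2 were lower in WT males, and 1 was higher and 3 were lower in KO females. Whether these cells had a part in the Cyp2 differences was not tested.

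By edgeR, 19 of the 36 members passed in at least 1 of the 17 comparisons and 17 did not. The share of all genes that did so was not computed, and Res against WDA in KO females alone called 20.4% of all genes. The count is therefore not a measure of the family against other genes. The 17 were Cyp2a4, Cyp2a12, Cyp2b13, Cyp2c23, Cyp2c38, Cyp2c55, Cyp2c67, Cyp2c70, Cyp2d22, Cyp2d26, Cyp2d34, Cyp2e1, Cyp2f2, Cyp2g1, Cyp2j5, Cyp2r1 and Cyp2s1. Low counts kept Cyp2g1 out of all but 8 comparisons and Cyp2s1 out of all but 2.

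The third question was whether Cre vectors changed the family. By edgeR 0 members passed between KO and WT mice in WDA females (0% of all genes), WDA males (0%), Res females (0%) and Res males (0%), between HepKO and WT females (0%), or between HepKO and KO females (0.0162%). At an unadjusted p under 0.05 there were 0, 4, 1, 6, 1 and 6 members, where 3.11%, 7.71%, 19.2%, 1.45%, 10.1% and 5.74% of all genes had one. DESeq2 called 0 members in WDA females (0.0645% of all genes), Res females (4.89%), Res males (0.0555%) and both HepKO comparisons (1.79% and 0.308%), and 1 in WDA males (0.137%), Cyp2b9 (adjusted p = 0.00241). The WDA WT females are the controls of both KO and HepKO females.

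KO males lay above WT males without overlap for Cyp2a4 and Cyp2b9 at WDA, 2 of 34 members (7.57% of all genes), and for Cyp2b9, Cyp2c40 and Cyp2c69 at Res, 3 of 34 (2.08%). They lay below WT males without overlap for 3 members at WDA, Cyp2d9, Cyp2d10 and Cyp2d22 (8.70% of all genes), and 1 at Res, Cyp2d34 (2.57%). Among females, KO and WT mice did not overlap for 1 of 33 members at WDA (8.81% of all genes) and 4 of 34 at Res (26.2%). HepKO females did not overlap with WT females for 2 of 35 members (18.6%) and with KO females for 6 of 35 (10.9%). None of these members passed by edgeR. For Cyp2b9 among WDA males, WT mice had 16.7, 3.93 and 5.26 CPM and KO mice 54.1, 94.4 and 31.1, without overlap. Its log2 fold change there was 2.81 ± 0.64 (adjusted p = 0.588, edgeR). Among Res males, WT mice had 1.64, 2.37 and 7.36 and KO mice 131, 9.20 and 7.58, again without overlap, with a log2 fold change of 3.70 ± 1.14 (adjusted p = 1). Without the livers with high cholangiocyte markers the log2 fold changes were 2.30 ± 0.50 and 2.07 ± 0.30, and neither passed (adjusted p of 0.303 and 0.925). All KO males stayed below every female for Cyp2b9. Cyp2c69 in Res males had 4.15, 1.84 and 4.29 CPM in WT and 82.0, 6.90 and 10.3 in KO mice, with a log2 fold change of 3.28 ± 0.91 (adjusted p = 1). Cyp2b13 had 0.504, 0.296 and 4.18 CPM in WT and 87.1, 0.727 and 1.08 in KO Res males, which overlapped, with a log2 fold change of 4.12 ± 1.70 (adjusted p = 1). KO mouse 5, one of the 5 livers set apart, was the highest for both. In females the log2 fold changes of Cyp2b9 were 0.43 ± 0.32 at WDA (adjusted p = 0.978), -0.30 ± 0.22 at Res (0.481), 0.13 ± 0.32 for HepKO against WT (0.906) and -0.31 ± 0.10 for HepKO against KO (0.707).

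The other 3 leading members had no call either. For Cyp2e1 the log2 fold changes were 0.43 ± 0.74 in WDA females, -0.28 ± 0.61 in WDA males, 0.39 ± 0.36 in Res females, 0.14 ± 0.32 in Res males, 0.65 ± 0.75 for HepKO against WT and 0.21 ± 0.12 for HepKO against KO (adjusted p of 0.978, 0.871, 0.588, 1, 0.784 and 0.905). In the same order Cyp2a4 had 0.28 ± 0.41, 3.96 ± 1.41, 0.28 ± 0.28, 2.02 ± 1.73, -0.08 ± 0.40 and -0.38 ± 0.15 (adjusted p of 0.978, 0.588, 0.613, 1, 0.958 and 0.859). Cyp2c40 had 0.67 ± 0.76, 0.91 ± 0.58, 0.14 ± 0.15, 2.55 ± 0.67, 0.37 ± 0.76 and -0.31 ± 0.18 (adjusted p of 0.978, 0.617, 0.652, 1, 0.887 and 0.905). The Res male values of Cyp2c40 were highest in KO mouse 5, one of the 5 livers set apart. The standard errors of Cyp2a4 in males were above 1 on the log2 scale, so a change of 2-fold was not detectable there.

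Without WT female 7, HepKO against WT females gave 3 calls, beside 2.80% of all genes. Cyp2a4 was then higher in HepKO mice (log2 fold change 0.53 ± 0.12, adjusted p = 0.0492), and Cyp2c37 (log2 fold change -0.44 ± 0.09, adjusted p = 0.0393) and Cyp2c70 (log2 fold change -0.55 ± 0.10, adjusted p = 0.0275) were lower. KO against WT Res females gave 1 call without WT female 1. With all mice, none of the lists of related genes had a call in any of the vector comparisons. Since 0% to 0.0162% of all genes passed there, this says nothing particular about the lists.

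Differences between these differences were tested in 3 interaction fits. By edgeR 0 members passed for stage by sex in WT mice (0.00760% of all genes), for vector by sex at Res (0%) or for vector by stage in females (0%). At an unadjusted p under 0.05 there were 2, 4 and 0 members (7.71%, 11.5% and 6.21% of all genes), and DESeq2 called 0 in each (0.601%, 0.592% and 0.00773%). Without the 5 libraries, stage by sex gave 2 calls (0.0705% of all genes), namely Cyp2u1 (log2 fold change 2.49 ± 0.36, adjusted p = 0.0484) and Cyp2c54 (log2 fold change -2.39 ± 0.32, adjusted p = 0.0332), and vector by sex gave 1 (0.00775%), Cyp2b9 (log2 fold change 2.55 ± 0.28, adjusted p = 0.0306). A call in one sex, stage or vector group and not in another was otherwise not shown to differ between them.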

How the data were processed

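The authors sequenced liver RNA of 27 mice on the BGISEQ platform and aligned reads with HISAT to the genome (GRCm38.p6) and with Bowtie2 to reference gene sequences. The counting tool is not given in the sources used here. They deposited estimated counts per gene (7.28% of the values are not whole) and FPKM, which divides by gene length and library size. All 54 value columns were mapped by name. Estimated counts were rounded for testing.

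Genes were filtered with edgeR's filterByExpr (minimum count 10), scaled by TMM and tested with edgeR 4.0.16 (R 4.3.3) by quasi-likelihood, 3 mice against 3, with Benjamini-Hochberg adjustment over all genes tested and a threshold of 0.05. Alternatives used DESeq2 1.42.0, RLE scaling, library totals, no filter, all 27 libraries in 1 fit, differences of mean log2(FPKM + 0.1), with no test, a replicate block and leaving out each mouse. Leaving out the 5 libraries over 150 CPM of cholangiocyte markers was added after seeing the data. The code was tested on simulated data. The members, lists, motifs and tests were chosen with earlier results of these data known. The rule for named genes was the 4 genes Cyp2e1, Cyp2b9, Cyp2a4 and Cyp2c40, the highest member of each subfamily by FPKM and up to 5 called members in each direction of a comparison. Other members were named after their values were seen. Replicates are separate mice.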

Additional observations from a re-analysis of the deposited data

Results flagged for a closer look

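Cyp2c54 moved in opposite directions between stages in the sexes of WT mice, without overlap in either. The stages did not overlap for 20.4% of all genes in females and 36.0% in males. WT females had 49.97, 55.0 and 4.40 CPM at WDA and 269.8, 154 and 81.3 at Res (log2 fold change 2.21, edgeR adjusted p = 0.346), and WT males had 417, 345 and 374 and 336, 250.4 and 90.9 (log2 fold change -0.74, adjusted p = 0.224). The interaction was -2.96 ± 1.04 and did not pass (edgeR adjusted p = 0.55). Without WDA WT female 7, Res WT female 13 and Res WT male 9 it was -2.39 ± 0.32 and passed (adjusted p = 0.0332). Cyp2c54 shares 25.7% of its 50-base windows with other Cyp2 genes, so its counts are uncertain.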

How the results depend on the processing

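Counts of called members in the sex comparisons depended on the setting. DESeq2 gave 11, 13 and 8 calls in WDA WT, Res WT and WDA KO mice, and the fit of all 27 libraries gave 10 in WDA WT and 10 in Res WT mice. Library totals gave 5 in Res KO mice. Leaving out 1 mouse gave 0 to 20, 3 to 8, 0 to 14 and 2 to 14 calls in WDA WT, Res WT, WDA KO and Res KO mice. Without the 5 libraries the counts were 20 in WDA WT and 14 in WDA KO mice. For Res against WDA, DESeq2 gave 1 in WT females and 1 in KO males, and the fit of all libraries gave 1 in WT females, 0 in WT males and 2 in KO females. Leaving out 1 mouse gave 0 to 1 in WT females, 0 to 9 in WT males and 0 to 1 in KO males, and without the 5 libraries KO males had 1. For vectors, DESeq2 gave 1 in WDA males, leaving out 1 mouse gave 0 to 1 in Res females and 0 to 3 for HepKO against WT, and leaving out the 5 gave 3 for HepKO against WT. The interactions of stage with sex and of vector with sex had 2 and 1 without the 5. For most fits without 1 mouse the share of all genes is not given, so those counts stand without a background.

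Signs were followed for called members, and for Cyp2e1, Cyp2b9, Cyp2a4 and Cyp2c40 in the sex and vector comparisons. Among these they turned only for values that did not pass with all mice. Without the 5 libraries the log2 fold change of Cyp2e1 was 0.36 between the sexes in WDA KO mice, 0.059 in Res KO mice, -0.083 for KO against WT in WDA females and 0.18 in WDA males. HepKO against WT gave 0.53 for Cyp2a4, which then passed (edgeR adjusted p = 0.0492), -0.17 for Cyp2b9 and -0.16 for Cyp2c40. With library totals, Cyp2c40 in KO against WT Res females was -0.021. Leaving out 1 mouse gave Cyp2e1 ranges of -0.16 to 0.47 (sex, Res WT), -0.58 to 0.36 (sex, WDA KO), -0.18 to 0.059 (sex, Res KO), -0.083 to 0.81 (KO against WT, WDA females), -0.78 to 0.18 (WDA males) and -0.12 to 0.30 (Res males). Cyp2a4 in KO against WT Res males ranged from -2.69 to 6.23, and HepKO against WT ranged from -0.32 to 0.53 for Cyp2a4, -0.17 to 0.33 for Cyp2b9 and -0.16 to 0.95 for Cyp2c40. The cause was not tested.

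A replicate block was possible only for Res against WDA in KO females, where 2 mouse numbers recur, and gave 12 calls in place of 13. The numbers are only names, since the mice belong to different experiments, and no pairing was assumed. Cyp2s1 and Cyp2g1 rest on few counts, and 3 mice a group limit what could be detected.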

Other observations

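Cyp2r1, the vitamin D 25-hydroxylase, had 3.80, 5.29 and 2.84 CPM in WDA WT females, 4.80, 6.96 and 6.02 in WDA WT males, 5.97, 5.45 and 4.84 in Res WT females and 5.67, 6.17 and 3.12 in Res WT males. Cyp2c55 stood at 2.32, 1.73 and 3.60 CPM in WDA WT females and 0.587, 0.406 and 0.506 in Res KO females. Cyp2s1 had 0.113, 0.162 and 1.72 CPM in the Res WT females, highest in mouse 13. These low levels rest on few counts.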
